A study of Cyprinus carpio with 6 samples.

Results

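The nuclear-encoded respiratory chain genes of common carp (Cyprinus carpio) were examined in whole embryos at the mid-blastula stage. The members were taken by symbol, as every gene with a count whose name begins with nduf, sdha to sdhd, uqcr, cyc1, cox4 to cox8, cox10 to cox19 or atp5, without the genes of the mitochondrial genome. This gave 37 of the 40568 loci counted in any library. They comprised 16 complex I subunits, 6 complex I assembly factors, 2 complex II subunits, 3 complex II assembly factors, 8 ATP synthase subunits and 2 ATP synthase inhibitors. The rule also covers complexes III and IV, but it found 0 genes of each, so the values below describe complexes I and II and the ATP synthase only. Of the counted loci 80.1% carry only a LOC or XLOC number, and such loci could not be matched by the rule.

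In 3 RNA-Seq libraries the embryos came from sperm kept on ice for 14 days in an extender (14-day-aged sperm), and in the other 3 from fresh sperm. Fresh and stored sperm were taken from the same males, whose sperm maturation had been induced with carp pituitary, and all eggs came from 1 female. The paper mentions repeated hormone injections and stripping of males. Whether both sperm groups came from the same stripping is not given in the sources used here. Storage and stripping occasion therefore cannot be told apart. Which male stands behind which library is not given in the sources used here, so the p-values describe the spread of these libraries only, which may be technical. The number of embryos in a library is not given in the sources used here.

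Oxidative phosphorylation takes place in the inner mitochondrial membrane. Complex I passes electrons from NADH, and complex II from succinate, to ubiquinone, and the proton gradient that complexes I, III and IV build drives the ATP synthase. Complex I and the ATP synthase hold subunits from both the nuclear and the mitochondrial genome, whereas complex II is entirely nuclear-encoded. Before the zygotic genome is switched on, a fish embryo relies on mRNAs and mitochondria laid down in the egg. The roles given below are known mostly from mammals and yeast.

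Library totals ranged from 14993459 to 15632387 counts. CPM are counts scaled to the TMM-adjusted library size. Of a list of 14 early embryo and pluripotency genes, 5 had a count. Of these, nanog and pou5f3 stood at 735 to 846 and 651 to 806 CPM in libraries from 14-day-aged sperm. In those from fresh sperm they stood at 770 to 866 and 701 to 812 CPM. The third tested gene of that list, sox19b, had 42.9 to 68.5 CPM after storage and 37.4 to 56.0 CPM without it. Its counted genes sox19a and sox32 did not exceed 0.655 CPM. Of 17 maternal oocyte and germ plasm genes 5 had a count, and they summed to 3830 to 4450 CPM after storage and 4000 to 4550 CPM without it. Most of this sum came from the cyclin genes ccna1 (1930 to 2280 CPM over all libraries) and ccnb1 (1840 to 2200 CPM). The other counted genes were lower, with zp3b at 43.3 to 49.5 CPM, btg4 at 14.1 to 19.4 CPM and org at no more than 0.0683 CPM. Of 10 genes of the enveloping and yolk syncytial layers 2 had a count, and they summed to at most 0.628 CPM. Of a list of sperm and testis genes, 6 of 16 had a count, with a summed level of 36.9 to 40.8 CPM after storage and 40.2 to 48.0 CPM without it. The largest part was spata18, at 26.5 to 28.7 CPM after storage and 30.5 to 35.9 CPM without it. Its part in the results below was not tested. The second largest, dmrt1, overlapped between the groups, at 8.67 to 11.5 CPM after storage and 9.5 to 11.1 CPM without it, and amh did not exceed 0.683 CPM. Of the 2 tested genes of this list, edgeR (described below) gave 1 lower at an unadjusted p under 0.05, where 1.9% of all tested genes were. It called 0 at an adjusted p under 0.05. Within that list the flagellar genes tekt2, tekt3 and spag6 did not exceed 0.377 CPM. Of 22 genes of differentiated tissue 4 had a count, and they summed to 0.519 to 1.7 CPM after storage and 0.589 to 1.38 CPM without it. Replicate 3 of both groups stood apart on the first principal component of all tested genes, at 53.2 (aged) and 44.0 (fresh) against -28.6 to -15.2 in the other 4 libraries. In RNA of whole embryos, a lower level in each cell and fewer cells with the transcript cannot be told apart.

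The members differed widely in level. The authors' FPKM, which scales counts for length and depth, is used wherever one gene is set against another. It is not the plain count divided by the listed gene length and depth, and for short genes it stands above that value. For example, atp5mea (384 bases, mean of 68.0 counts) and atp5pb (1013 bases, mean of 426 counts) both averaged 37.9 FPKM. Orders and shares between genes of unlike length depend on this scaling. Mean levels over the 6 libraries ran from 0.0233 to 122 FPKM. A mean of at least 10 FPKM was reached by 15 of the 37 genes, and 7 stayed under 1 FPKM. The median over all 37 members was 5.81 FPKM, against 1.51 FPKM over all counted loci. Among genes with enough counts for the test, the median was 10.1 FPKM for 29 members and 5.0 FPKM for all 27342. When the genes were ordered by FPKM, the 6-library ranges of neighbours overlapped in all but 4 of 36 neighbouring pairs. Those 4 steps lay between ndufb8 and atp5f1c, atp5f1c and ndufb2, atp5pb and atp5if1a, and ndufb6 and ndufaf7.

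**Figure D1:**
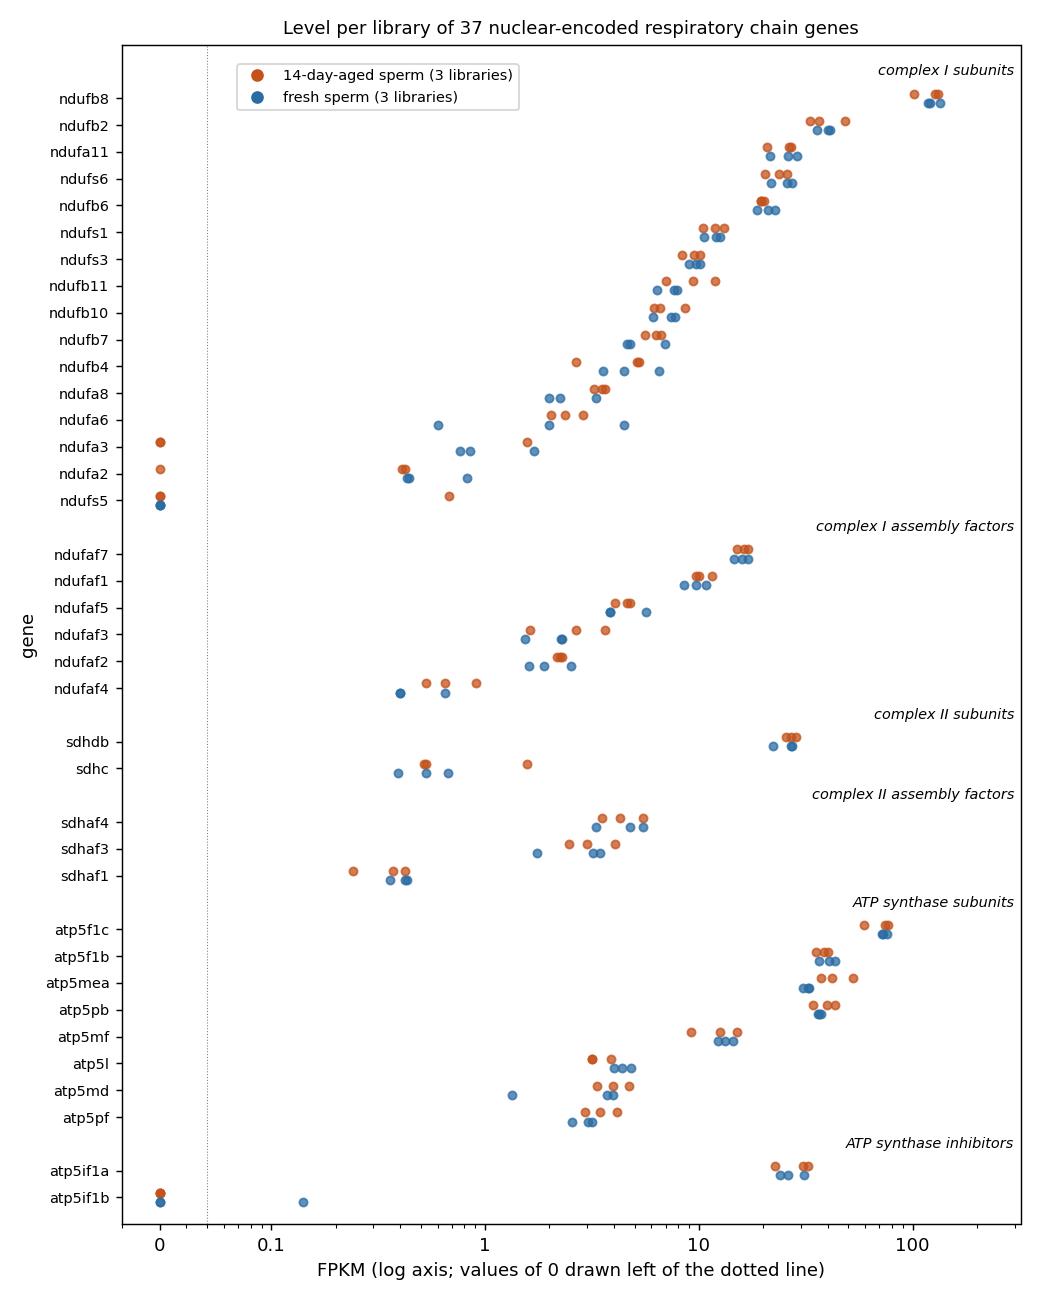
FPKM (log axis) of each of the 37 genes in every library, with 3 points for 14-day-aged sperm above 3 points for fresh sperm, grouped by complex and ordered by mean level. ndufb8 lies highest in both groups, at 120 ± 16.0 and 124 ± 8.54 FPKM (SD, n = 3), and values of 0 are drawn left of the dotted line.

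Among the 16 complex I subunits matched by symbol, ndufb8 was by far the most abundant. This accessory subunit of the membrane arm lies on chromosome B12 from 25165722 to 25168145 in the assembly ASM1834038v1. Its level was 127.94, 101.8 and 130.92 FPKM in embryos from 14-day-aged sperm and 120.09, 118.41 and 133.97 FPKM in embryos from fresh sperm. The second replicate from aged sperm was the lowest of the 6, and the groups overlapped. ndufb8 alone held 42.9% of the FPKM summed over the 16 subunits. It stood 40.9-fold above ndufa8, the lowest subunit that could be tested.

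Next came ndufb2, another membrane arm subunit on chromosome A4 (15015047 to 15016691), with 48.24, 33.24 and 36.46 FPKM after storage and 41.24, 40.41 and 35.81 FPKM without it. Its gene overlaps LOC109066408, and whether reads were assigned by strand is not given in the sources used here. ndufa11, ndufs6 and ndufb6 followed at 24.8, 23.3 and 19.8 FPKM in the aged group and 25.5, 25.0 and 20.8 FPKM in the fresh group. The 2 core subunits among the members were lower: ndufs1, which carries iron-sulphur clusters of the electron path, averaged 11.8 ± 1.30 FPKM after storage and 11.7 ± 1.05 FPKM without it, and ndufs3 averaged 9.32 ± 0.906 and 9.61 ± 0.583 FPKM (SD, n = 3). ndufb11, ndufb10, ndufb7, ndufb4 and ndufa8 had group means between 2.50 and 9.41 FPKM.

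ndufa6, ndufa3, ndufa2 and ndufs5 had too few counts for the test. ndufa6, a subunit of the LYR motif family, had 8, 10 and 7 counts in embryos from aged sperm and 7, 2 and 15 in embryos from fresh sperm. ndufa2 and ndufa3 did not exceed 2 counts in any library. ndufs5, on the intermembrane space side, had 3 counts in the first aged replicate and 0 in the other 5 libraries. A count of 0 at these depths allows up to 0.192 to 0.200 CPM (3 counts, counting error only).

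The assembly factors of complex I matched by symbol were led by ndufaf7, a methyltransferase that modifies a core subunit, on chromosome B20 from 3614005 to 3625205. It gave 17.06, 16.31 and 15.16 FPKM after storage and 17.01, 15.88 and 14.68 FPKM without it, and the groups overlapped almost entirely. The gene overlaps cebpz. ndufaf1, which builds the membrane arm, had 11.55, 10.07 and 9.69 FPKM in the aged group and 8.56, 10.83 and 9.71 FPKM in the fresh group. ndufaf5, ndufaf3 and ndufaf2 averaged 4.46, 2.64 and 2.24 FPKM after storage and 4.44, 2.03 and 2.01 FPKM without it. ndufaf4, an early assembly factor, was counted 3 to 7 times per library and was not tested.

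For complex II, sdhdb, a membrane anchor subunit on chromosome B15 (15905098 to 15908618), gave 26.88, 28.56 and 25.69 FPKM in embryos from aged sperm and 22.35, 27.18 and 27.1 FPKM in embryos from fresh sperm. The first fresh replicate was the lowest, and the other 5 libraries lay within 25.69 to 28.56 FPKM. The other anchor, sdhc, was near the limit of counting, with 12, 4 and 4 counts after storage and 3, 5 and 4 without it. sdhaf4 and sdhaf3, which help to mature the catalytic subunits, averaged 4.46 and 2.98 FPKM over all libraries. Both lay below the median of all tested genes, 5.0 FPKM. sdhaf4 had 3.52, 5.47 and 4.28 FPKM in the aged group and 5.48, 4.74 and 3.29 FPKM in the fresh group. sdhaf3 had 3.0, 2.46 and 4.05 FPKM in the aged group and 3.21, 3.43 and 1.75 FPKM in the fresh group, and the groups overlapped for both genes. sdhaf1, an iron-sulphur cluster delivery factor, had 8, 14 and 12 counts after storage and 12, 14 and 14 without it.

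Among the ATP synthase subunits matched by symbol, the rotor shaft subunit gamma (atp5f1c, chromosome A4, 16506875 to 16510902) was the most abundant. It had 74.47, 59.17 and 76.61 FPKM after storage and 72.72, 71.95 and 75.76 FPKM without it. As for ndufb8, the second aged replicate was the lowest library. The catalytic subunit beta (atp5f1b, chromosome A11, 7989109 to 7993388) reached 40.24, 38.59 and 35.49 FPKM in the aged group and 43.38, 40.44 and 36.5 FPKM in the fresh group. atp5pb, a subunit of the stator stalk, had 43.53, 39.65 and 34.21 FPKM after storage and 36.08, 37.45 and 36.6 FPKM without it. Its aged libraries lay on both sides of the narrow range of the fresh ones. The small membrane subunit atp5mea had 37.15, 52.56 and 42.0 FPKM in the aged group and 32.39, 30.66 and 32.78 FPKM in the fresh group. The small subunits atp5mf, atp5md, atp5pf and atp5l were lower, with group means between 2.91 and 13.3 FPKM, and atp5md was not tested.

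The 2 ATP synthase inhibitor genes matched by symbol differed sharply from each other. atp5if1a, which blocks the reverse reaction of the enzyme, gave 30.58, 32.53 and 22.61 FPKM in embryos from aged sperm and 26.2, 24.02 and 31.09 FPKM in embryos from fresh sperm. Its paralogue atp5if1b had 1 count, in the third fresh replicate, and 0 in the other 5 libraries. The 912 counts of atp5if1a over all libraries stood against this 1. Counts of atp5if1a were fractional in 5 libraries, and any copy of either gene that carries only a LOC number is outside this contrast.

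The comparison of the sperm groups asked whether these genes differed between embryos from stored and from fresh sperm. The test was edgeR's quasi-likelihood F test, with Benjamini-Hochberg adjusted p-values computed across 27342 genes. Of the 37 members 29 had enough counts, and 0 were called at an adjusted p under 0.05, each with an adjusted p of 1. The background share of calls was 0.0146% of all tested genes. DESeq2 also called 0 members, of 35 with an adjusted p, against a background of 0.163%. At an unadjusted p under 0.05 edgeR gave 0 members higher and 0 lower, where 1.46% of all tested genes were higher and 1.9% lower, and DESeq2 gave 0 as well.

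Log2 fold changes of aged over fresh were positive for 15 of the tested members and negative for 14. Their median was 0.00131, beside -0.000895 over all tested genes. The 95% interval of the difference contained 0 for all 29. It lay within a 2-fold change in either direction for 23 members and within a 1.5-fold change for 16; over all tested genes 82.9% lay within 2-fold. For ndufaf7 the interval ran from -0.13 to 0.17, for atp5f1b from -0.24 to 0.07 and for ndufs1 from -0.22 to 0.22 on the log2 scale. Changes beyond these bounds lay outside the intervals of these abundant genes. The intervals of ndufaf3 (-0.49 to 1.24) and ndufb4 (-1.11 to 0.78), with a mean of 18.5 and 15.8 counts, could still hold a 2-fold change.

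**Figure D2:**
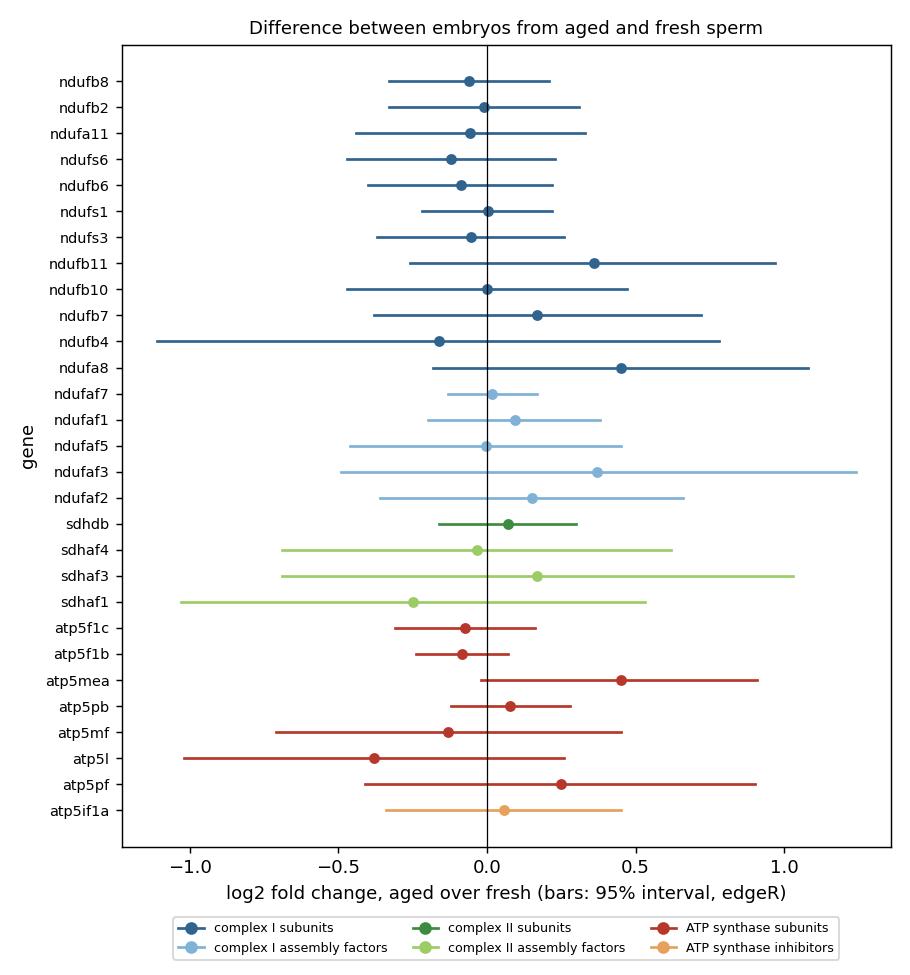
Log2 fold change of the 29 tested genes, embryos from 14-day-aged sperm over embryos from fresh sperm, with its 95% interval from edgeR and coloured by complex. Every interval crosses 0, and the narrowest belongs to ndufaf7 (-0.13 to 0.17).

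The 12 tested members with a mean of at least 100 counts had log2 fold changes between -0.0844 (atp5f1b) and 0.0941 (ndufaf1). The other 17 ran from -0.38 to 0.45. The smallest p-value belonged to atp5mea, subunit e of the ATP synthase, on chromosome B21 from 11082024 to 11083628. After depth scaling it had 4.02, 6.29 and 5.19 CPM in the aged group and 4.0, 3.47 and 3.89 CPM in the fresh group. Every aged library lay above every fresh one, but the nearest values, 4.02 and 4.0 CPM, almost touched. edgeR gave a log2 fold change of 0.45 (standard error 0.197, unadjusted p = 0.0566 and adjusted p = 1). The estimate was 0.28 without the second aged replicate, the highest library.

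ndufa8, an intermembrane space subunit of complex I on chromosome B10 (6809576 to 6814408), had 30, 29 and 26 counts after storage and 27, 16 and 18 without it. In CPM the groups did not overlap, but the third aged and the first fresh replicate both rounded to 1.77 CPM. In FPKM they did overlap, at 3.22 in the third aged and 3.29 in the first fresh replicate. The edgeR estimate was 0.45 on the log2 scale, with a standard error of 0.266 and an adjusted p of 1, and it was 0.70 without the first and 0.30 without the second fresh replicate.

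atp5l, subunit g of the ATP synthase, was the third gene whose groups did not overlap in CPM, and of these 3 the one with lower values after storage. It had 12, 15 and 12 counts in the aged group and 17, 15 and 18 in the fresh group. Scaled for depth the nearest values were 0.973 CPM (aged) and 0.982 CPM (fresh). edgeR put the log2 difference at -0.38, with a standard error of 0.271 and an adjusted p of 1. Thus in CPM 2 of 29 tested members, ndufa8 by this narrow margin, had every aged library above every fresh one, where 4.11% of all tested genes did, and 1 had every aged library below, where 4.45% did. These 3 genes had an unadjusted p under 0.05 in limma on log2(FPKM + 1), as 3 of 30 members tested there, where 3.78% of all genes tested by limma did, and limma called 0 members at an adjusted p under 0.05.

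Further members with the smallest p-values in each direction overlapped between the groups. ndufb11, of the membrane arm, had 37, 50 and 62 counts after storage and 41, 33 and 41 without it, a log2 fold change of 0.36 (standard error 0.259). This estimate was 0.55 without the first and 0.13 without the third aged replicate. ndufaf3 had 13, 29 and 21 counts after storage and 18, 18 and 12 without it, a log2 fold change of 0.37 (standard error 0.368). It was 0.64 without the first aged, 0.0817 without the second aged and 0.22 without the third fresh replicate. For ndufs6, a zinc-binding subunit near the NADH site, the log2 fold change was -0.12 (standard error 0.148), and for sdhaf1 it was -0.25 (standard error 0.331). The ndufs6 estimate was -0.0552 without the third aged, -0.0368 without the first fresh and -0.23 without the second fresh replicate. That of sdhaf1 was -0.0358 without the first and -0.42 without the second aged replicate.

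By group, the median log2 fold change was -0.0316 for 12 tested complex I subunits, 0.0941 for 5 complex I assembly factors, -0.0342 for 3 complex II assembly factors and -0.0747 for 7 ATP synthase subunits. The complex I assembly factors were positive in 4 of 5 cases, and the signs were mixed in the other 3 groups.

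Summed over the 37 genes, the members took 427, 403 and 420 CPM in libraries from 14-day-aged sperm and 420, 412 and 424 CPM in libraries from fresh sperm. The highest library exceeded the lowest 1.06-fold. Nuclear complex I subunits summed to 139, 122 and 139 CPM after storage and 136, 132 and 141 CPM without it, a range of 1.15-fold. ATP synthase subunits summed to 158, 147 and 157 CPM in the aged group and 161, 155 and 158 CPM in the fresh group, a range of 1.09-fold. In both sums the second aged replicate was the lowest. The sums were carried mostly by a few well counted genes and say little of the members with few counts. In the first aged replicate ndufaf7, atp5f1b, atp5f1c and ndufb8 had 60.2, 59.7, 58.3 and 52.8 CPM.

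The mitochondrial genome's transcripts for the same enzymes were spread more widely between libraries. Its 7 complex I genes summed to 3310, 3440 and 5190 CPM after storage and 2300, 2780 and 3570 CPM without it, a range of 2.26-fold. Its 2 ATP synthase genes summed to 921, 834 and 1380 CPM in the aged group and 766, 783 and 1070 CPM in the fresh group, a range of 1.80-fold. Replicate 3 of each group was the highest of its group in both sums. The nuclear complex I sum was also highest in replicate 3 of the fresh group (141 CPM), and it was 139 CPM in replicates 1 and 3 of the aged group. The nuclear ATP synthase sum was highest in replicate 1 of each group, at 158 CPM (aged) and 161 CPM (fresh). The difference between nuclear and mitochondrial genes was not tested. All 12 tested mitochondrial genes had a positive log2 fold change, with a median of 0.405, where 13588 of all 27342 tested genes were positive. The mitochondrial sum of every complex was highest in the third aged and lowest in the first fresh replicate. The genes thus moved together between libraries, and their 12 signs are not separate observations. Of the 12 mitochondrial genes edgeR called 0 at an adjusted p under 0.05, and DESeq2 called 0. In edgeR 1 of them (ND1, unadjusted p = 0.0497) was higher at an unadjusted p under 0.05, where 1.46% of all tested genes were. Summed over the 13 counted mitochondrial genes the groups overlapped, at 17800 to 26300 CPM after storage and 13600 to 20000 CPM without it.

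**Figure D3:**
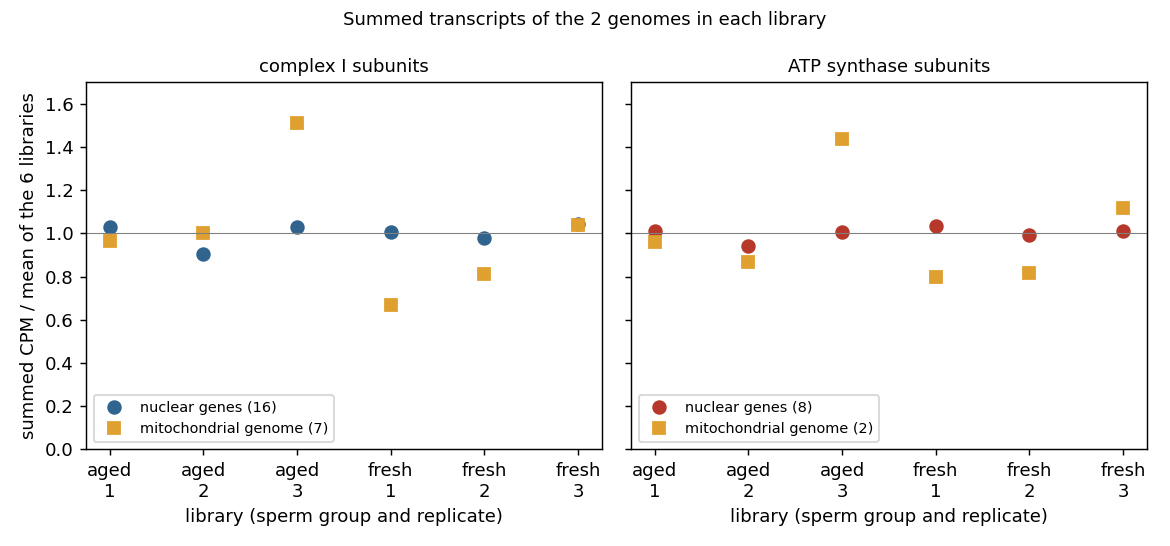
Summed CPM of nuclear and of mitochondrial-genome genes for complex I (left) and the ATP synthase (right), each divided by its mean over the 6 libraries, with aged libraries left of fresh ones. The nuclear sums stay near 1 (ranges 1.15-fold and 1.09-fold), and the mitochondrial sums peak in the third aged replicate (ranges 2.26-fold and 1.80-fold).

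Ribosomal protein genes were summed in the same way for comparison. The 44 mitochondrial ribosomal protein genes took 455 to 478 CPM in the aged group and 471 to 477 CPM in the fresh group, a range of 1.05-fold. The 38 cytosolic ones took 1380 to 1570 CPM after storage and 1430 to 1640 CPM without it, a range of 1.18-fold. Median log2 fold changes were -0.00859 over 36 tested mitochondrial and -0.0513 over 37 tested cytosolic ribosomal protein genes, and edgeR and DESeq2 called 0 in either group. At an unadjusted p under 0.05 edgeR gave 1 mitochondrial gene higher and 2 cytosolic genes lower. Over all tested genes 1.46% were higher and 1.9% lower.

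Other genes of the pathway were taken from a list of 115 assembly factors, electron carriers, ubiquinone synthesis genes and regulators of the mitochondrial genome outside the rule. Of these 40 had a count and 35 were tested. edgeR called 0 higher and 0 lower at an adjusted p under 0.05, and DESeq2 called 0. At an unadjusted p under 0.05 in edgeR there was 1 higher and 0 lower, where 1.46% of all tested genes were higher and 1.9% lower. The median log2 fold change was 0.0373. The 1 gene was romo1, a small inner membrane protein linked to reactive oxygen species, with 28, 18 and 20 counts in embryos from 14-day-aged sperm and 13, 9 and 8 in embryos from fresh sperm. edgeR put it 1.10 higher on the log2 scale, with a standard error of 0.317 and an adjusted p of 1. Of the 12 tested genes for control and copying of the mitochondrial genome, 9 had a positive and 3 a negative log2 fold change. Among them tfb1m was at -0.26 and tfb2m at 0.21.

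Spread between libraries was larger on the whole for genes with few counts, with exceptions. Within-group coefficients of variation of CPM lay between 4.57% and 16.0% for the 12 members with at least 100 counts and between 8.35% and 34.7% for the other 17. atp5l, at a mean of 14.8 counts, varied by 12.1%, less than atp5if1a at 152 counts (16.0%). The median ratio of this spread to the counting error expected from the mean count was 1.34, and 9 of the 29 members varied less than counting error alone would give. ndufb8 varied by 11.8% against 3.54% from counting, with its lowest value in the second aged replicate, whereas ndufaf7 varied by 4.57% against 3.37%.

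**Figure D4:**
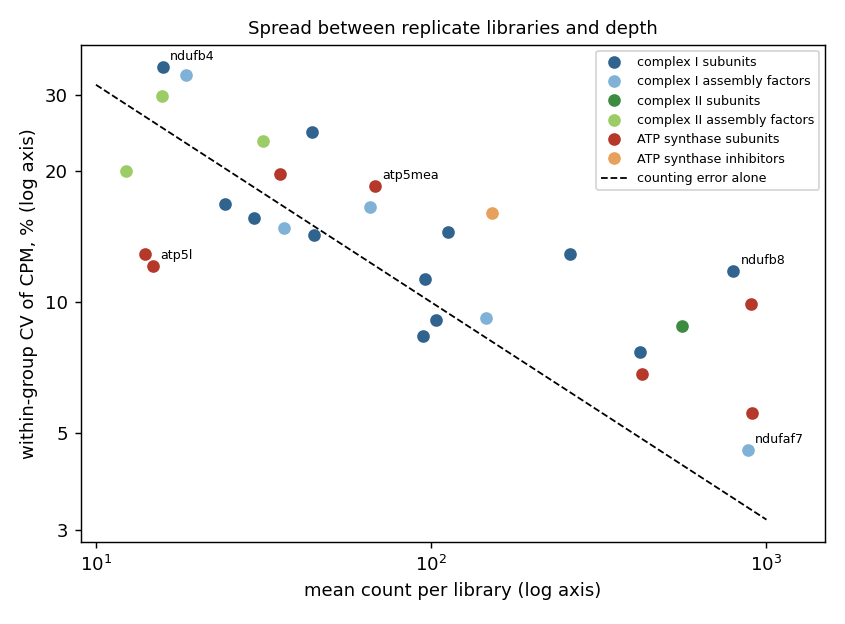
Within-group coefficient of variation of CPM against the mean count per library for the 29 tested genes (both axes log), with the dashed line showing counting error alone. ndufb4 (34.7%) spreads most, atp5l (12.1%) lies well under the line, and ndufaf7 (4.57%) is the tightest.

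Common carp is allotetraploid, and near-identical gene copies can share reads. Among the member values above 0, 6.22% were not whole numbers, against 41.2 to 41.8% of all listed values per library. The fractional member values belonged to atp5if1a, ndufb10 and ndufs1. By position 16 members lay on A chromosomes and 21 on B chromosomes. A chromosomes held 43.2% of the members and 48.4% of all placed genes with a count. Members on A chromosomes had a median of 5.21 FPKM and those on B chromosomes 8.36 FPKM. Medians over all genes of A and of B chromosomes are not given here, and whether this difference is particular to the members was not tested. Gene models were short, from 340 to 3880 bases. The median level was 3.89 FPKM for 13 members under 600 bases and 5.13 FPKM for 14 from 600 to below 1000 bases. It was 13.9 FPKM for 10 of 1000 bases or more. The scaling of the authors' FPKM, which raises short genes, bears on these medians. In 5 members (ndufaf1, ndufaf5, ndufaf7, ndufb2 and sdhaf3) the gene overlaps another annotated gene.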

How the data were processed

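The data are 6 RNA-Seq libraries of mid-blastula embryos, grouped by their GEO titles. Per the labels and the paper, libraries of mRNA captured on oligo(dT) beads were sequenced on DNBSEQ. The authors used HISAT2 on the carp assembly ASM1834038v1, then StringTie, Cuffmerge and Bowtie2, and compared the groups with DESeq2 (versions not given in the sources used here). The deposited estimated counts and FPKM per gene, in tables named for RSEM, were made by the authors. The gene length column is in bases, and the length correction behind the FPKM is not given in the sources used here. The authors' table of their own comparison (p-values and log2 fold changes) and 18 per-library columns were not used.

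Estimated counts were rounded and tested with edgeR 4.0.16 under R 4.3.3. The fit used filterByExpr, TMM factors and the quasi-likelihood test of aged over fresh with no covariate, and p-values were adjusted by Benjamini-Hochberg across 27342 genes. Standard errors are the log2 fold change divided by the square root of F, and 95% intervals use the test's degrees of freedom. Depth was 14993459 to 15632387 counts per library, and floors of 3 counts cover counting error only. Alternatives were DESeq2 1.42.0, RLE scaling, other count filters, a replicate block, leaving out each library, and limma 3.58.1 on log2(FPKM + 1) or log2(FPKM + 0.1) at a mean of at least 1 FPKM. Leaving out replicate 3 of both groups was chosen after seeing the data. The tests were tried on simulated data, with changes of 2-fold or more set in well counted genes only. This trial does not cover smaller changes or members with few counts. Positions come from the RefSeq gene table of ASM1834038v1, in which all 37 members were matched by symbol. Named genes are members called, the 2 of highest FPKM in each group of members, the 5 smallest p-values in each direction, paralogue pairs and members with few counts. Members and lists were chosen with earlier results of these data known. Sequences were not analysed here. Tables and figures used Python 3.11.15, pandas 2.3.3, numpy 2.4.6 and matplotlib 3.10.9.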

Additional observations from a re-analysis of the deposited data

How the results depend on the processing

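The count of called members was 0 under every alternative run. At an unadjusted p under 0.05 the count was 3 with limma on log2(FPKM + 1) and 3 on log2(FPKM + 0.1), namely atp5mea, ndufa8 and atp5l, whose p-values were 0.00715, 0.0453 and 0.0302 on the first scale. It was 0 to 1 with single libraries left out, atp5mea passing without the first aged and ndufa8 without the first fresh replicate. The median log2 fold change of the members was 0.0248 and 0.0293 in the limma fits, -0.0114 to 0.0436 with single libraries left out and -0.0234 without replicate 3 of both groups. In the other alternatives run it moved by less than the SD of 0.0218 between libraries. Of 248 values of 18 named genes under alternatives, 232 kept their sign and 16 turned it. All 16 came from leaving libraries out. With single libraries left out the log2 fold change ranged from -0.17 to 0.0242 for atp5f1c, -0.0513 to 0.18 for atp5if1a, -0.0147 to 0.0648 for ndufaf7, -0.15 to 0.0966 for ndufb2, -0.15 to 0.0477 for ndufb8, -0.0705 to 0.33 for sdhaf3, -0.21 to 0.14 for sdhaf4 and -0.0209 to 0.14 for sdhdb. Without a change of sign it ranged from -0.13 to -0.0294 for atp5f1b, 0.0163 to 0.15 for atp5pb and 0.0118 to 0.17 for ndufaf1. Without replicate 3 of both groups, a choice made after seeing the data, sdhaf3 was at -0.31. The cause was not tested.

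With the replicate number as a block the count of called members was 0, with 0 at an unadjusted p under 0.05 and a median of 0.00082. Calls over all genes numbered 0 with the block and 4 without it. At an unadjusted p under 0.05 in edgeR, all tested genes gave 1569 with the block and 920 without it. The pairing is not established: same-numbered libraries deviated together at correlations of -0.00237, 0.0375 and 0.0886. The third replicates correlated best with their own number. So did the second, by a narrow margin (0.0375 against 0.032 and 0.0291 with the first replicates), and the first did not.

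Depth limits the 17 tested members under 100 counts and the 8 that could not be tested. A small change of these genes would not be detectable. For some of them, such as ndufaf3 and ndufb4, the interval also held a 2-fold change, and the 8 untested members have no interval. Spread between libraries also limits the 12 tested members with at least 100 counts. Their 95% intervals on the log2 scale included -0.34 to 0.45 for atp5if1a and -0.44 to 0.33 for ndufa11.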
